A study of Mus musculus with 6 samples.

Results

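The let-7 family was examined through its 9 unstarred mature strands on the array, mmu-let-7a, mmu-let-7b, mmu-let-7c, mmu-let-7d, mmu-let-7e, mmu-let-7f, mmu-let-7g, mmu-let-7i and mmu-miR-98, written below without the species prefix. They were taken by probe name from 707 mouse miRNA probes, each printed as 5 spots. Alopecia areata (AA) is an autoimmune loss of hair that arises spontaneously in some mice of the inbred strain C3H/HeJ. The AA group held 3 arrays of skin with hair loss from C3H/HeJ mice with spontaneous AA. The unaffected group held 3 arrays of normal haired skin from C3H/HeJ mice without the disease. Both groups were untreated as far as the labels say, both gave RNA of whole dorsal skin, and each sample was hybridised alone to a 1-colour µParaflo chip, a microfluidic chip carrying miRNA detection probes. The labels used here give no age. According to a design note each mouse gave 5 samples, and no label links them to arrays. The p-values therefore reflect the spread among the 6 arrays alone, and that spread may be technical.

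The let-7 miRNAs are among the most conserved of animal miRNAs. Each is a short RNA that guides an Argonaute protein to messenger RNAs carrying matches to its seed, the bases near its 5′ end, and lowers their output. Known targets include Lin28, Hmga2, Ras and Myc transcripts, and LIN28 proteins in turn block the maturation of let-7 precursors. The family rises as cells differentiate and is abundant in most adult tissues, skin included.

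The 9 sequences are shown because members differ by a few bases outside a common seed, which bears on how far the probes can be told apart. Capitals mark bases 2 to 8, and all 9 array sequences were identical to a RefSeq mature miRNA of build GRCm38.p6.
let-7a: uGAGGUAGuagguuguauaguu
let-7b: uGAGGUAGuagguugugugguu
let-7c: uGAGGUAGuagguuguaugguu
let-7d: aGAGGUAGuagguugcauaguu
let-7e: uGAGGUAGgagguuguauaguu
let-7f: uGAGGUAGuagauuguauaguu
let-7g: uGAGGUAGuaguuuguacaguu
let-7i: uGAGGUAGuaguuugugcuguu
miR-98: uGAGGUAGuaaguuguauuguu
Counted from 1 at the 5′ end, with the base of let-7a written first, let-7c carries A19G and let-7b carries A17G and A19G. The single changes of let-7e and let-7f are U9G and G12A, and let-7d carries U1A and U16C. The change at the middle of the strand is G12U in let-7g, which also has U18C, and miR-98 carries G11A and A19U. The most distant from let-7a was let-7i, with G12U, A17G, U18C and A19U. Between any 2 members 1 to 6 of the 22 bases differed, and 4 of the 36 pairs differed by a single base. GC content ran from 31.8% in let-7f and miR-98 to 45.5% in let-7b, with 36.4% in let-7a and let-7g and 40.9% in the others.

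The 9 strands are encoded by 12 hairpins on 7 chromosomes (RefSeq, GRCm38.p6). A group of hairpins lies close together on the minus strand, Mirlet7a-1 (chr13:48538179-48538272), Mirlet7f-1 (chr13:48537829-48537917) and Mirlet7d (chr13:48536012-48536114). Mirlet7c-2 (chr15:85706603-85706697) and Mirlet7b (chr15:85707319-85707403) lie within the span of the noncoding gene Lncppara. Mirlet7f-2 (chrX:151912346-151912428) and Mir98 (chrX:151913214-151913321) lie within Huwe1, which encodes a ubiquitin ligase. A second copy of let-7a, Mirlet7a-2 (chr9:41536716-41536811), lies within Mir100hg, the host gene of miR-100, and a second copy of let-7c, Mirlet7c-1 (chr16:77599657-77599750), lies 656 bases from Mir99a. Mirlet7e (chr17:17830352-17830444) lies within the span of Spaca6 and 367 bases from Mir125a. Mirlet7g (chr9:106178840-106178927) lies within Wdr82, and Mirlet7i (chr10:122985640-122985724) overlapped no other listed gene. A probe reads the mature strand, so the 2 copies of let-7a, let-7c and let-7f cannot be told apart.

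The arrays differed in signal. The median raw intensity of the empty control spots was 209 to 530 on the AA arrays and 168 to 274 on the unaffected arrays. For the 88 probes detected on all 6 arrays, raw intensity stood at a median of 1.46 to 3.33 times the empty spots on the AA arrays and 4.20 to 16.9 times on the unaffected arrays. AA replicate 3 was the weakest (1.46), and differences of members that rest on it are also given without it. A probe was called detected where the mean of its 5 spots exceeded the 95th percentile of the array's empty spots, and 157 miRNAs detected on at least 3 arrays were tested. Keratinocyte markers (miR-203, miR-205 and the miR-200 miRNAs) were all 5 detected on all 6 arrays, and so were all 4 skeletal muscle markers. Their summed normalized levels on the log2 scale were 13.61 to 14.57 on the AA arrays and 13.96 to 14.55 on the unaffected arrays for keratinocytes. For muscle they were 12.75 to 13.61 on the AA arrays and 12.91 to 15.13 on the unaffected arrays. Of 5 lymphocyte markers 2 were detected on all arrays, and miR-142-3p, miR-142-5p and miR-155 on 0, with summed levels of 10.74 to 11.52 on the AA arrays and 10.38 to 11.57 on the unaffected arrays. The myeloid marker, not detected on all 6 arrays, stood at 7.15 to 8.42 on the AA arrays and 7.75 to 8.60 on the unaffected arrays. Of 2 red cell markers 1 was detected on all arrays, with summed levels of 9.17 to 13.66 on AA and 11.84 to 12.50 on unaffected arrays. The endothelial marker, detected on all arrays, stood at 8.71 to 9.60 on AA and 9.02 to 11.24 on unaffected arrays. The part of these cell types in the let-7 values was not tested. In RNA of whole skin, fewer cells of a type and less RNA per cell cannot be told apart.

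All 9 members were tested, since 8 were detected on all 6 arrays and miR-98 on 3. let-7a, let-7b and let-7c stood well above the empty spots on every array, at least 3.52 times their median. The raw intensity of let-7a, the mean of 5 spots in scanner units, was 5914, 6881 and 1866 in AA replicates 1 to 3 and 9215, 11828 and 15105 on unaffected replicates 1 to 3. Those of let-7c were 7300, 7308 and 3569 in AA skin and 9689, 11645 and 14267 in unaffected skin. Each AA array thus lay below each unaffected array before any normalization. The same held for let-7b, let-7d and let-7f, making 5 of 9 members, where raw groups separated with AA lower for 8.28% of the 157 tested miRNAs and for 14.8% of the 88 detected on all arrays. The median raw log2 difference, AA minus unaffected, was -1.03 over the 9 members, -0.94 over the 88 probes and -0.17 over all 157. By median, the members' lower raw signal in AA was thus close to that of the 88 probes, of which 8 are members. The share of members with separated raw groups, 5 of 9, was above the 14.8% of the 88, which include those 5. By median the members stood farther above the empty spots than the 88 on every array. On AA replicate 3 the medians were 2.17 and 1.46 times the empty spots, and on unaffected replicate 2 they were 54.4 and 16.9 times. Raw values still hold the background, and probes of like brightness were not compared. The higher share therefore cannot be read as a trait of the family. In raw values AA and unaffected arrays also differ in overall signal.

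The remaining members were less clear-cut in raw signal. let-7i measured 1859, 3931 and 1408 in AA replicates 1 to 3, against 1540, 6540 and 5334 on unaffected replicates 1 to 3. let-7g measured 624, 1928 and 692 in AA skin and 960, 5049 and 4243 in unaffected skin. For both, unaffected replicate 1 was far below the other 2 unaffected arrays and inside or near the AA range. let-7e ran from 694 to 1792 in AA and from 1323 to 2380 in unaffected skin. miR-98 lay near the empty spots, at 231, 673 and 553 in AA skin and 374, 185 and 496 in unaffected skin. Its signal was 1.04 to 1.37 times the empty spots on the AA arrays and 1.10 to 2.62 times on the unaffected arrays, with detection on 1 of 3 AA and 2 of 3 unaffected arrays.

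**Figure D1:**
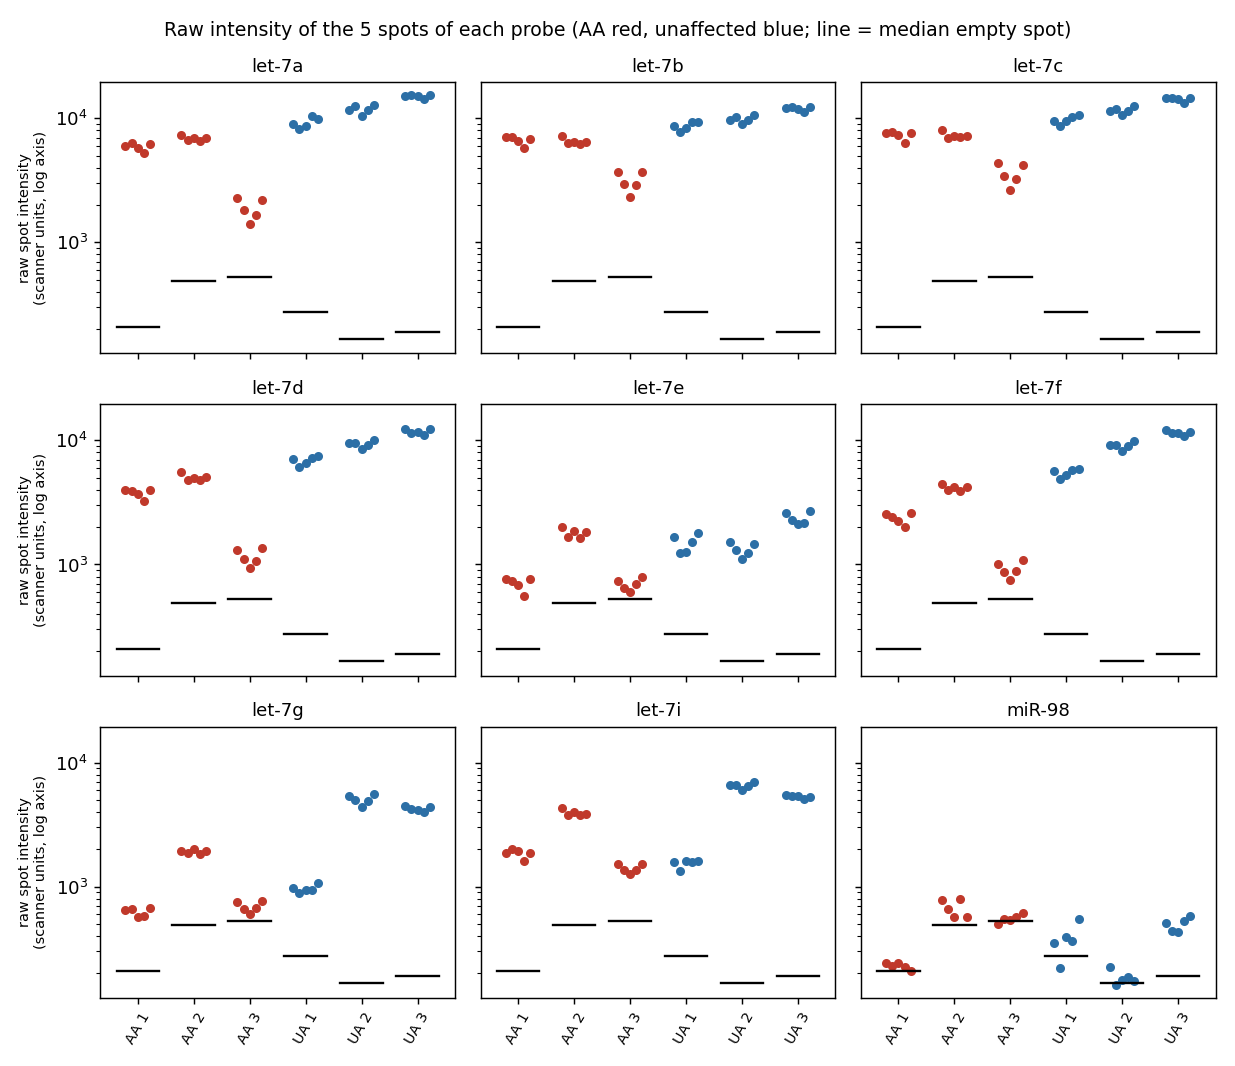
Raw intensity (log axis, scanner units) of the 5 spots of each of the 9 probes on each array, with AA arrays in red and unaffected arrays (UA) in blue; the black line is the median empty spot of that array. For let-7a, let-7b, let-7c, let-7d and let-7f every AA array lies below every unaffected array, and miR-98 lies near the empty spots on most arrays.

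The 5 spots of a probe gave its technical precision. The coefficient of variation over the 5 spots had a median over members of 5.89% to 14.3% on the AA arrays and 3.91% to 7.82% on the unaffected arrays. The AA figure of 14.3% was that of AA replicate 3, where the 5 spots of let-7a ran from 1405 to 2259, against a median of 6.62% over all tested miRNAs on that array. The copies of the 8 let-7 probes lie near each other in a chip column, and on AA replicate 3 all 8 had their lowest value at the third of the 5 spots. The same was seen at the third spot for 8 of 8 on unaffected replicate 2 and at the second spot for 8 of 8 on unaffected replicate 1, so part of the spread between spots was shared by neighbouring probes. The highest coefficient of variation of a let-7 probe was 19.7%. miR-98, printed elsewhere, reached 31.2% on unaffected replicate 1.

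After background correction and quantile normalization, no member passed the test between AA and unaffected skin. By limma 0 of 9 passed an adjusted p under 0.05, as did 0% of the 157 tested miRNAs, and 0 of 9 reached an unadjusted p under 0.05, against 7.64% of all tested (2.55% higher and 5.10% lower in AA). Adjusted p ran from 0.726 to 0.989 over the members. The groups overlapped for all 9 members, while they did not overlap for 11.5% of all tested miRNAs (4.46% with AA higher and 7.01% with AA lower). Means were higher in AA for 3 members and lower for 6, against 73 higher and 84 lower of all 157, and the median log2 difference was -0.066 over the members and -0.039 over all tested. The 95% intervals reached down to -1.79 (let-7f) and up to 1.54 (let-7b). A fall of more than 2-fold in AA lay within the intervals of let-7a, let-7d, let-7e, let-7f, let-7g and miR-98. A rise of more than 2-fold lay within those of let-7b, let-7c, let-7e and let-7i.

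**Figure D2:**
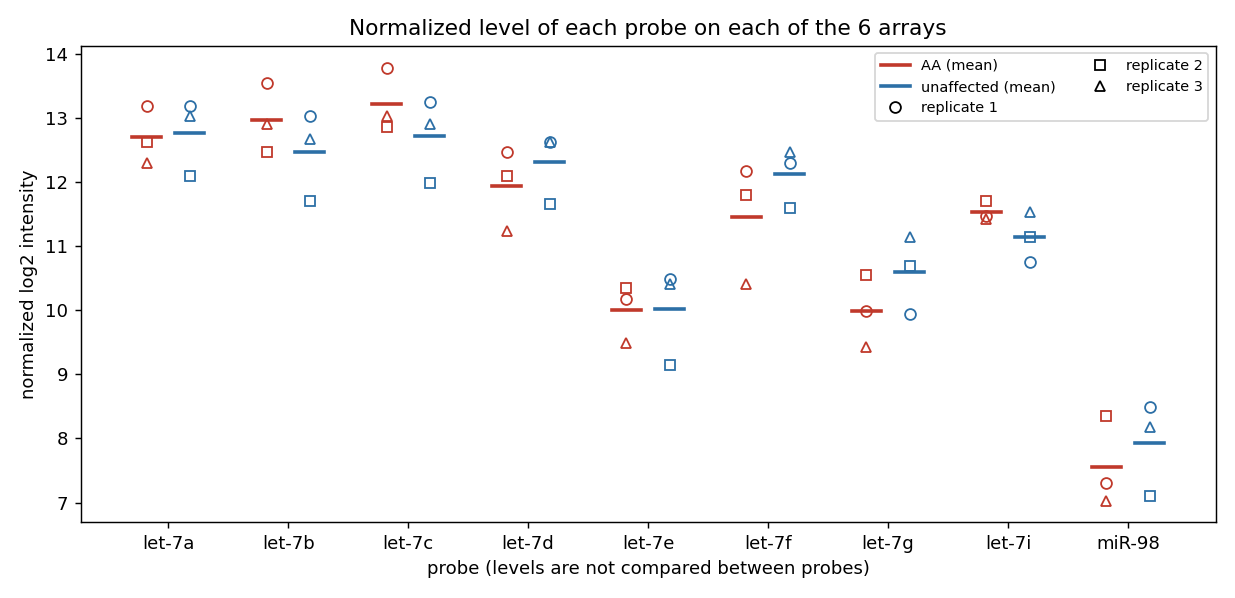
Normalized log2 intensity of each probe on the 3 AA arrays (red) and the 3 unaffected arrays (blue), with symbols for replicates and a bar for the group mean. The red and blue points overlap for each of the 9 probes.

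The 3 members with higher means in AA were let-7b, let-7c and let-7i. let-7c stood at 13.78, 12.85 and 13.03 normalized log2 units on AA replicates 1 to 3, against 13.25, 11.98 and 12.90 on unaffected replicates 1 to 3. Unaffected replicate 2 was the low array and AA replicate 1 the high one, and the other 4 lay between 12.85 and 13.25. The means were 13.22 ± 0.49 for AA against 12.71 ± 0.66 for unaffected skin (SD, n = 3 each), a log2 difference of 0.51 (SE 0.45, limma adjusted p = 0.740). let-7b, which shares a locus with 1 copy of let-7c and differs from it by 1 base, stood at 13.54, 12.47 and 12.90 in AA skin, against 13.03, 11.70 and 12.66 in unaffected skin. Its difference was 0.50 (SE 0.47), with the same low and high arrays. Without unaffected replicate 2 the differences were 0.15 for let-7c and 0.14 for let-7b, and without AA replicate 1 they were 0.21 for both. They were 0.75 for let-7c and 0.76 for let-7b without unaffected replicate 1, and 0.71 and 0.79 without AA replicate 2.

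let-7i, encoded by a single hairpin, stood at 11.47, 11.70 and 11.43 in AA skin, against 10.75, 11.14 and 11.54 in unaffected skin. The AA arrays lay close together, and unaffected replicate 3 fell inside their range. Its difference was 0.39 (SE 0.38, limma adjusted p = 0.740). It had the smallest SE of the family. With single arrays left out the difference ran from 0.20 (without unaffected replicate 1) to 0.59 (without unaffected replicate 3).

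let-7f and let-7g had the lowest AA means relative to unaffected skin. let-7f stood at 12.17, 11.79 and 10.41 on AA replicates 1 to 3, against 12.29, 11.60 and 12.47 on unaffected replicates 1 to 3. AA replicate 3 alone was low, and the other 2 AA arrays lay within the unaffected range. The difference of -0.67 (SE 0.51, limma adjusted p = 0.726) was -0.17 without AA replicate 3 and -1.0 without AA replicate 1. let-7g stood at 9.99, 10.55 and 9.43 in AA skin, against 9.94, 10.69 and 11.14 in unaffected skin. Here unaffected replicate 1 lay at the level of the AA arrays. The difference was -0.60 (SE 0.46, limma adjusted p = 0.726) and ran from -0.96 without unaffected replicate 1 to -0.33 without AA replicate 3 and -0.31 without unaffected replicate 3.

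let-7d, encoded beside let-7f and let-7a, stood at 12.47, 12.09 and 11.24 in AA skin, against 12.63, 11.65 and 12.63 in unaffected skin. AA replicate 3 was again the low array, and the difference of -0.37 (SE 0.46) was 0.010 without it and -0.73 without unaffected replicate 2. let-7a stood at 13.18, 12.63 and 12.29 in AA skin, against 13.18, 12.09 and 13.03 in unaffected skin, with a difference of -0.066 (SE 0.44). let-7e stood at 10.18, 10.35 and 9.49 in AA skin, against 10.48, 9.15 and 10.41 in unaffected skin, with a difference of -0.0073 (SE 0.47). Both were spread over more than 1 log2 unit within the unaffected group. Their differences ran from -0.41 for let-7a and -0.42 for let-7e without unaffected replicate 2 to 0.14 and 0.27 without AA replicate 3. miR-98 stood at 7.31, 8.34 and 7.03 in AA skin, against 8.50, 7.10 and 8.18 in unaffected skin, with a difference of -0.36 (SE 0.50). That difference was -0.77 without AA replicate 2, -0.67 without unaffected replicate 2, -0.11 without AA replicate 3 and -0.074 without unaffected replicate 1. Over the family, AA replicate 3 was the lowest array for 4 members, let-7d, let-7f, let-7g and miR-98, and unaffected replicate 2 for 4, let-7a, let-7b, let-7c and let-7e.

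**Figure D3:**
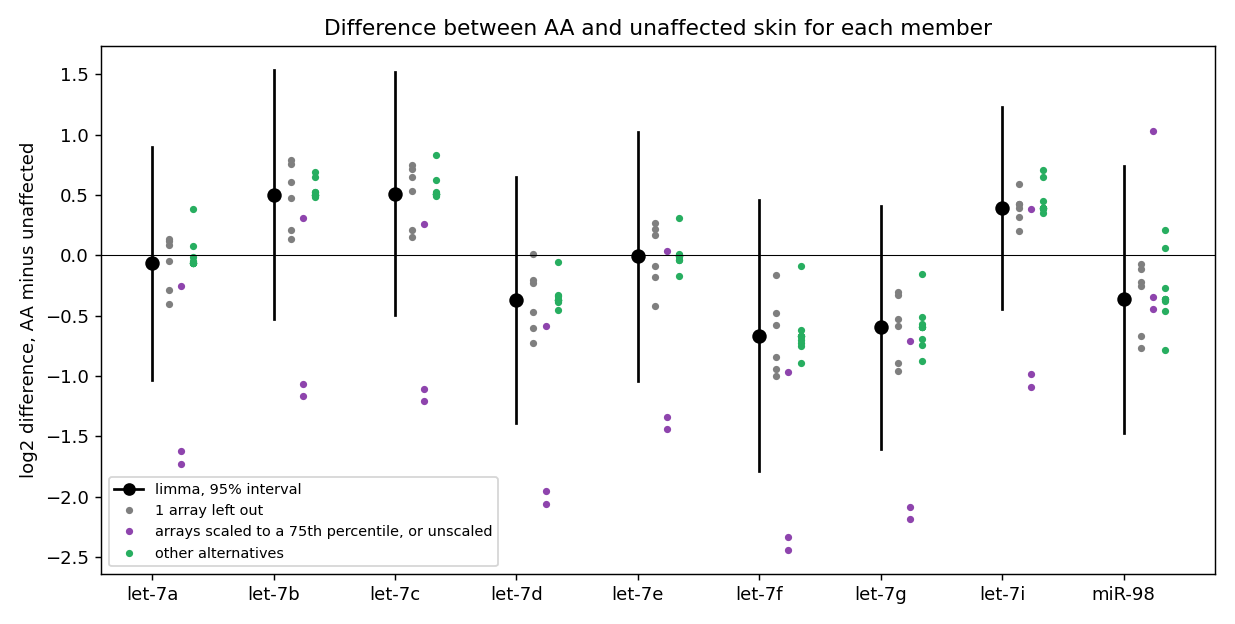
Log2 difference, AA minus unaffected, of each member with its 95% interval from limma (black), beside the values with 1 array left out (grey), with arrays scaled to a 75th percentile or left unscaled (purple) and under the other alternatives (green). Every black interval spans 0, and for the 8 let-7 members, not for miR-98, the purple values fall well below the others where no scaling or the 75th percentile of all probes was used.

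Scaling the arrays in other ways shifted the 8 let-7 members together, while miR-98 moved differently. When the 75th percentile over all probes was set equal between arrays, the members' median difference was -1.44, against -0.95 over all tested miRNAs. With no normalization between arrays it was -1.34, against -0.84. miR-98 differed by -0.45 and -0.34 under these 2 settings, near its quantile-normalized -0.36. With the 75th percentile taken over the 88 probes alone the members' median difference was 0.034, against 0.53 over all tested miRNAs, while miR-98 differed by 1.03. Relative to all tested miRNAs the members thus stood 0.49 lower in AA under each of these, and relative to the 88 probes detected on all arrays 0.026 lower. In the authors' deposited value table the members' median difference was -0.040. The number of members past the adjusted threshold was 0 under all 19 alternatives. At an unadjusted p under 0.05 it was 7 of 9, all lower in AA, with the 75th percentile over all probes (smallest adjusted p among members 0.071 by limma). Of all 157 tested miRNAs, 62 reached it under that setting, in either direction. With no normalization between arrays it was 4 of 9 members and 38 of all 157. Under the other 17 it was 0 members.

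Differences between 2 members within an array cancel a factor common to all its probes. They do not cancel the background correction and quantile normalization, which act differently at different intensities. In normalized values they describe which members kept their distance from each other. let-7b and let-7c kept their distance on every array: the log2 difference let-7b minus let-7c changed by 0.26 in all over the 6 arrays. let-7d minus let-7a changed by 0.65. The pair let-7a minus let-7f, which differ by 1 base and share a locus, changed by 1.40. It was 1.89 on AA replicate 3 and 0.49 to 1.01 on the other arrays. let-7i minus let-7f changed by 2.57, the most of the 36 pairs, from -1.55 on unaffected replicate 1 to 1.02 on AA replicate 3. Cross-hybridisation between these near-identical probes was not tested, so let-7b and let-7c may not be independent measurements.

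In normalized values the groups did not overlap for 4 of the 36 member pairs (11.1%), against 13.5% of all 12246 pairs of tested miRNAs. let-7c minus let-7f was 1.61, 1.06 and 2.62 on AA replicates 1 to 3 and 0.95, 0.38 and 0.44 on unaffected replicates 1 to 3. let-7i minus let-7g was 1.47, 1.15 and 1.99 in AA and 0.81, 0.45 and 0.40 in unaffected skin. The other 2 were let-7c minus let-7a, at 0.60, 0.22 and 0.73 in AA and 0.068, -0.12 and -0.13 in unaffected skin, and let-7c minus let-7d. These pairs were singled out after their values were seen, and their share was near the background. Whether they separate before normalization was not tested. In their own normalized levels let-7c and let-7i overlapped between the groups.

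The direction of these within-array differences followed GC content in most pairs. Of the 28 pairs that differ in GC content, the richer member was relatively higher in AA for 24 and lower for 4. Pairs share members, so these are not 28 independent comparisons. The same share over all pairs of tested miRNAs was not computed, so the count cannot be read as a trait of the family. The mean of the 5 members at or above the family's median GC content (let-7b, let-7c, let-7d, let-7e and let-7i) minus that of the other 4 was 1.62, 1.06 and 1.83 on AA replicates 1 to 3 and 1.05, 0.75 and 0.82 on unaffected replicates 1 to 3. The lowest AA value and the highest unaffected value were almost equal, at 1.06 and 1.05. This split was chosen after the values were seen. Its AA minus unaffected difference was 0.63, and 0.46 without AA replicate 3. With the median members placed in the lower group, let-7b alone minus the other 8 was 2.22, 1.18 and 2.36 in AA and 1.65, 1.03 and 1.13 in unaffected skin, and the groups overlapped.

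Over the tested miRNAs, the relation of signal to GC content differed from array to array. The slope of normalized log2 intensity on GC content was 0.0068, 0.13 and 0.17 per 10 percentage points on AA replicates 1 to 3. On unaffected replicates 1 to 3 it was -0.12, -0.077 and -0.36. The slopes of the groups did not overlap, but the nearest, 0.0068 and -0.077, lay close. Unaffected replicate 3 lay farthest from the rest, and the difference in slope between the groups was not tested. With each array's slope removed, the difference between AA and unaffected skin in the split of 5 against 4 members was 0.41 in place of 0.63, and 21 of 28 pairs had the richer member relatively higher in AA. The members' median difference was then 0.31, against -0.047 over all tested miRNAs. The log2 differences were then 0.83 for let-7c, 0.71 for let-7i and 0.69 for let-7b, against -0.088 for let-7f and -0.15 for let-7g. Scaled to a 75th percentile or left unscaled, the arrays gave a split of 0.31 and 19 of 28 pairs.

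**Figure D4:**
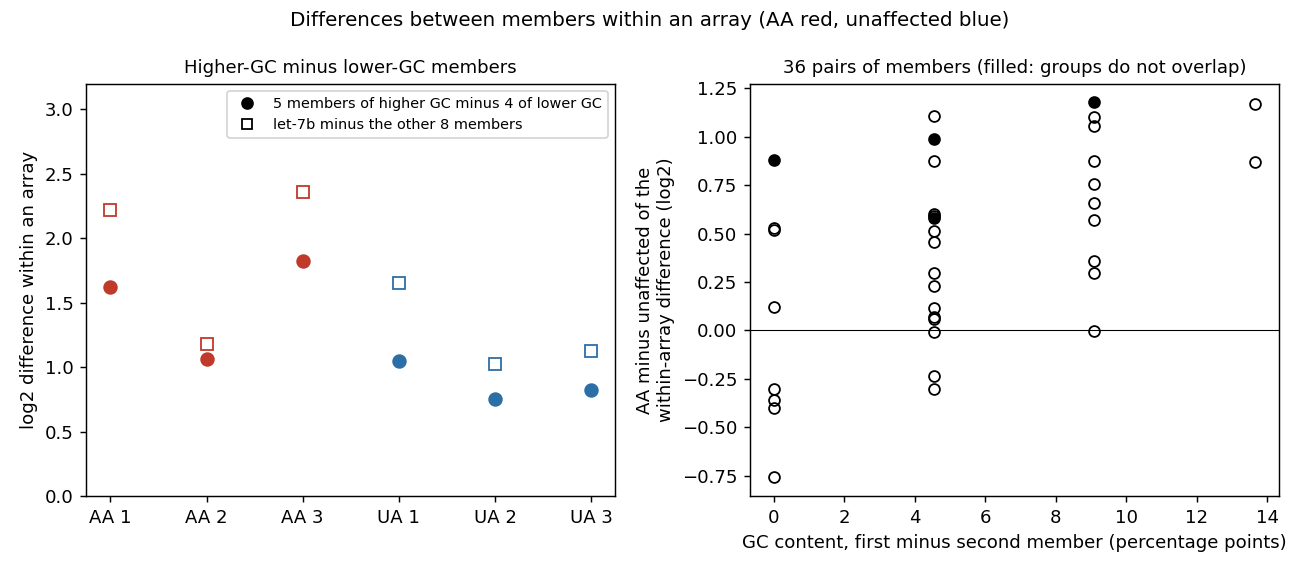
Left, the log2 difference within each array between the 5 members of higher and the 4 of lower GC content (filled circles) and between let-7b and the other 8 (open squares), AA in red and unaffected (UA) in blue. Right, for the 36 pairs of members, the AA minus unaffected change of the within-array log2 difference against the gap in GC content; most points with a gap above 0 lie above the zero line, and 4 filled points mark pairs whose groups do not overlap.

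Other miRNAs with the same seed or from the same clusters were few. Besides the 9 members, 1 of the 707 probes carried the same bases 2 to 8, miR-1961 (included for its sequence, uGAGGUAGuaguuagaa), and it was detected on 0 of 6 arrays. miR-202-3p, which matches the family over bases 2 to 7, was also detected on 0. Of the 5 cluster partners, all were tested and 0 passed in either direction, with 1 mean higher and 4 lower in AA. miR-99b, which lies in the let-7e cluster, averaged 9.72 ± 0.22 in AA skin, against 9.30 ± 0.38 in unaffected skin, and its neighbour miR-125a-5p 9.73 ± 1.41 in AA skin, against 10.42 ± 0.79 in unaffected skin (SD, n = 3 per group). miR-99a, beside a copy of let-7c, differed by -0.24 (SE 0.41), and miR-125b-5p by -0.079 (SE 0.46). miR-100, whose host gene also holds a copy of let-7a, stood at 8.54, 7.87 and 7.61 in AA skin, against 8.56, 9.02 and 9.46 in unaffected skin (difference -1.01, SE 0.42, limma adjusted p = 0.566). Its groups did not overlap, though the nearest arrays were almost equal, at 8.54 and 8.56, and in raw values the groups overlapped. Detection of miR-100 held for 2 of 3 AA and 3 of 3 unaffected arrays. Its signal was near the empty spots, at 1.09 to 1.51 times their median on the AA arrays and 1.35 times on unaffected replicate 1. The groups of let-7a overlapped.

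Of the 7 star strands of the family, the partner strands of the same hairpins, 2 were tested and 0 passed. let-7d* stood at 7.57, 7.12 and 6.86 in AA skin, against 9.40, 7.87 and 7.82 in unaffected skin, where replicate 1 was far above the rest (difference -1.18, SE 0.49, limma adjusted p = 0.566). Detection held for 1 of 3 AA and 3 of 3 unaffected arrays. let-7d itself had no such peak on unaffected replicate 1. let-7b* differed by 0.29 (SE 0.41), and 4 of the 7 were detected on 0 arrays.

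The 3 tested miRNAs outside the family whose pattern over the 6 arrays was most like the members' mean were miR-15b (Pearson r = 0.90, Spearman rho = 0.54), miR-183 (0.80 and 0.72) and miR-182 (0.78 and 0.54). They were chosen for this likeness and the arrays share their normalization, so the values are a description. Without the 2 arrays farthest from the median of the family mean, AA replicate 3 and unaffected replicate 2, r was -0.51 for miR-15b, 0.77 for miR-183 and -0.44 for miR-182. The likeness of miR-15b and miR-182 thus rested on those arrays. miR-183 was detected on only 1 of 3 AA and 2 of 3 unaffected arrays, and miR-182 on 2 of 3 in each group. Much of the signal of miR-183 thus lay near the empty spots. Their sequences are 11 or more edits from any member.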

How the data were processed

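Raw spot intensity (mean over the pixels of a spot) was deposited by the authors for 3968 spots per array and is neither background-subtracted nor normalized, as the values and the column header show. Per the labels' protocols, RNA was poly(A)-tailed, tagged and stained with Cy3. The labels also name biotin-labelled cRNA, and which step applied is not known. The labels used here name no image software. The processed intensity table deposited by the authors is linear and scaled between arrays by a method not given, and served as an alternative.

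Background was corrected with normexp (offset 50) in limma 3.58.1 (R 4.3.3), log2 values of 5 spots were averaged, and arrays were quantile-normalized over 707 miRNA probes. The offset compresses differences of dim probes. Groups were compared (AA minus unaffected, two-sided) with lmFit and eBayes of limma over 157 miRNAs with Benjamini-Hochberg adjustment. The limma comparison was tested on simulated normalized values, drawn independently for each miRNA and without shifts shared by an array. Background correction and quantile normalization were not covered by that simulation. Members, lists and tests were chosen with earlier results of these data known. Named beside the members were cluster partners, star strands, a seed relative and the 3 miRNAs most correlated with the members' mean. The labels do not say that replicate numbers pair mice, so no block was used. The number of arrays limits the precision. Levels are not compared between probes.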

Additional observations from a re-analysis of the deposited data

How the results depend on the processing

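Of the 19 alternatives, all gave 0 members past the adjusted threshold, and let-7f and let-7g kept their direction in all 19. The count over all miRNAs was 0 except with single arrays left out, where it ranged from 0 to 5 (5 without unaffected replicate 1, 2 without unaffected replicate 2); the unadjusted count of 12 became 62 with the 75th percentile of all probes, and that of the members 7 in place of 0 (4 with no normalization between arrays). The members' median of -0.066 was -1.44 with that scaling and -1.34 with no normalization between arrays, and ranged from -0.42 to 0.14 with single arrays left out; the cause was not tested. Under those 2 settings let-7b was -1.17 and -1.06, let-7c -1.21 and -1.11, and let-7i -1.09 and -0.99. Other changes of sign were these: let-7e was 0.0051 with no background correction, 0.014 with the median empty spot subtracted and 0.034 with the 75th percentile over the 88 well detected probes, where miR-98 was 1.03. With cyclic loess miR-98 was 0.059, and in the authors' table let-7a was 0.074. With the GC trend removed let-7a was 0.38, let-7e 0.31 and miR-98 0.21. With single arrays left out let-7a ranged from -0.41 to 0.14, let-7d from -0.73 to 0.010 and let-7e from -0.42 to 0.27. The within-array difference of let-7b over the other members, 0.65, stayed between 0.38 (without AA replicate 3) and 1.06 (without AA replicate 2) in all 19. miR-98 has no value where detection on all arrays was required.

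Same-numbered arrays deviated from their group means with correlations of 0.14, -0.10 and -0.12 over the tested miRNAs, and unlike-numbered arrays with -0.25 to 0.25. With 3 arrays per group, each centred on its own group mean, these values cannot show whether the numbers pair samples. The numbers were not taken to pair samples because the labels do not say so. With the replicate number as a block, 0 members and 0 miRNAs passed (smallest adjusted p = 0.768 among members), with the same differences, let-7f at -0.67 and a members' median of -0.066. Signal over the empty spots limits what can be said of miR-98, which was detected on 3 of 6 arrays.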
